A study of Mus musculus with 23 samples.

Results

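Loss of the nuclear receptor PPARα was examined in the colon of mice that received no heme, by setting the 6 KO control mice against the 5 WT control mice, 11 of the 23 mice in the series. The WT mice were of the strain 129S1/SvImJ and the KO mice of 129S4/SvJae-Pparatm1Gonz/J, in which Ppara is disrupted in every cell by a targeted allele, so that every difference below may belong to the allele or to the substrain, which cannot be told apart. All mice were males aged 7 to 9 weeks at the start and received for 14 days a Westernized high fat diet with 40% of energy as fat and a low calcium content of 30 µmol per g. The other 12 mice, 6 of each genotype, received the same diet with 0.5 µmol heme per g, and serve here as a second set of animals for the same genotype contrast. RNA from scraped colon mucosa was hybridised to 1 whole-transcript Affymetrix array per mouse, and 1 further WT control array had been excluded by the study. Each of 18820 genes was read from 1 probe set, its brightest over all arrays, and 14254 of them had a mean linear signal above 20 in either control group. Linear signal is 2 to the power of the normalised log2 value.

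PPARα is a ligand-activated transcription factor that pairs with a retinoid X receptor, binds direct repeats in promoters and enhancers, and switches on genes of fatty acid uptake, binding and oxidation when fatty acids or their derivatives occupy it. It is best known from the liver, where it drives peroxisomal and mitochondrial β-oxidation, ketone body formation and microsomal ω-hydroxylation during fasting. In the intestine it is expressed by epithelial cells beside the related receptors PPARδ and PPARγ, which share many of its targets.

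The arrays of both groups had medians of 5.86 to 5.90 on the log2 scale. Markers of absorptive colonocytes (20 of 20 with a signal above 20) had mean log2 values of 11.11 to 11.39 and goblet cell markers (14 of 14) 10.93 to 11.18, whereas those of pancreas and liver (4 of 8) stayed at 5.20 to 5.43. Some arrays stood apart in markers of other cells or in interferon-stimulated genes, which mark a response and not a cell type. WT control mouse 3 had mean log2 values of 7.09 for fibroblast and matrix genes and 6.79 for macrophage and MHC class II genes, while the other WT mice had 8.25 to 8.70 and 7.57 to 7.73. Smooth muscle markers were high in WT control mice 1 and 2 (9.52 and 9.86, with 8.36 to 8.69 in the other WT mice), and interferon-stimulated genes were high in KO control mice 3 and 4 (7.72 and 7.92, with 6.80 to 7.00 in the other KO mice).

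Ppara itself is the check of the genotype labels. Its linear signal was 463, 444, 560.2, 471 and 539 in the WT control mice, and ran from 240.0 to 378 (median 313) in the KO control mice. Every KO mouse lay below every WT mouse, but a signal remained. Where its probes lie relative to the targeted exon was not determined, and a probe outside the targeted sequence is no check of the allele. The means were 495 ± 50.9 (SD, n = 5) in WT and 310.3 ± 46.5 (SD, n = 6) in KO mice, a log2 fold change of -0.68 (SE 0.111, limma adjusted p = 0.00545). The two-sided exact permutation test over the 462 splits of the 11 mice gave p = 0.00216, the smallest value that these groups allow. In the heme-fed mice the log2 fold change of Ppara was -1.06 (limma adjusted p = 2.6e-06). The adjusted p of Ppara on the control diet lay near the threshold and rose above 0.01, to at most 0.0349, when any 1 of 8 arrays was left out (WT control 1, 3, 4 or 5, or KO control 2, 3, 4 or 5), with log2 fold changes of -0.61 to -0.74 over all 11 such fits.

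Few genes separated the genotypes in the absence of heme. With a limma adjusted p under 0.01 and a signal above 20, 10 genes differed (0.0531% of genes tested), 3 of them higher (0.0159%) and 7 lower (0.0372%) in KO mice. These were Vnn1, Akr1c18, Glo1, Dnah8, Ppara, Btbd9 and Psd4 on the lower side, and Tmem267, Tmem132c and Rpl4 on the higher side. With an adjusted p under 0.05 the list grew to 15 genes (0.0797%), by Hsdl2, Celf4 and Hs3st5 (lower) and Mb21d2 and Rnf19b (higher). When 1 array was left out, whichever it was, Hsdl2 no longer passed 0.05, while Mb21d2, Rnf19b and Hs3st5 passed in 2 of 11 such fits each and Celf4 in 9. The median log2 fold change over all genes was -0.000125, and 11 genes differed by more than 1 on the log2 scale in either direction, of which 3 (Vnn1, Akr1c18 and Tmem267) were called. The remaining 8 had adjusted p-values above the threshold. Without WT control mouse 3, 9 genes were called, all of them among the 10, and Ppara was the gene lost. Without both WT control mice that were high in smooth muscle markers, 9 genes were called, with Ppara and Tmem132c lost and Rusc2 gained, and without KO control mice 3 and 4 again 9, with Ppara lost.

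**Figure D1:**
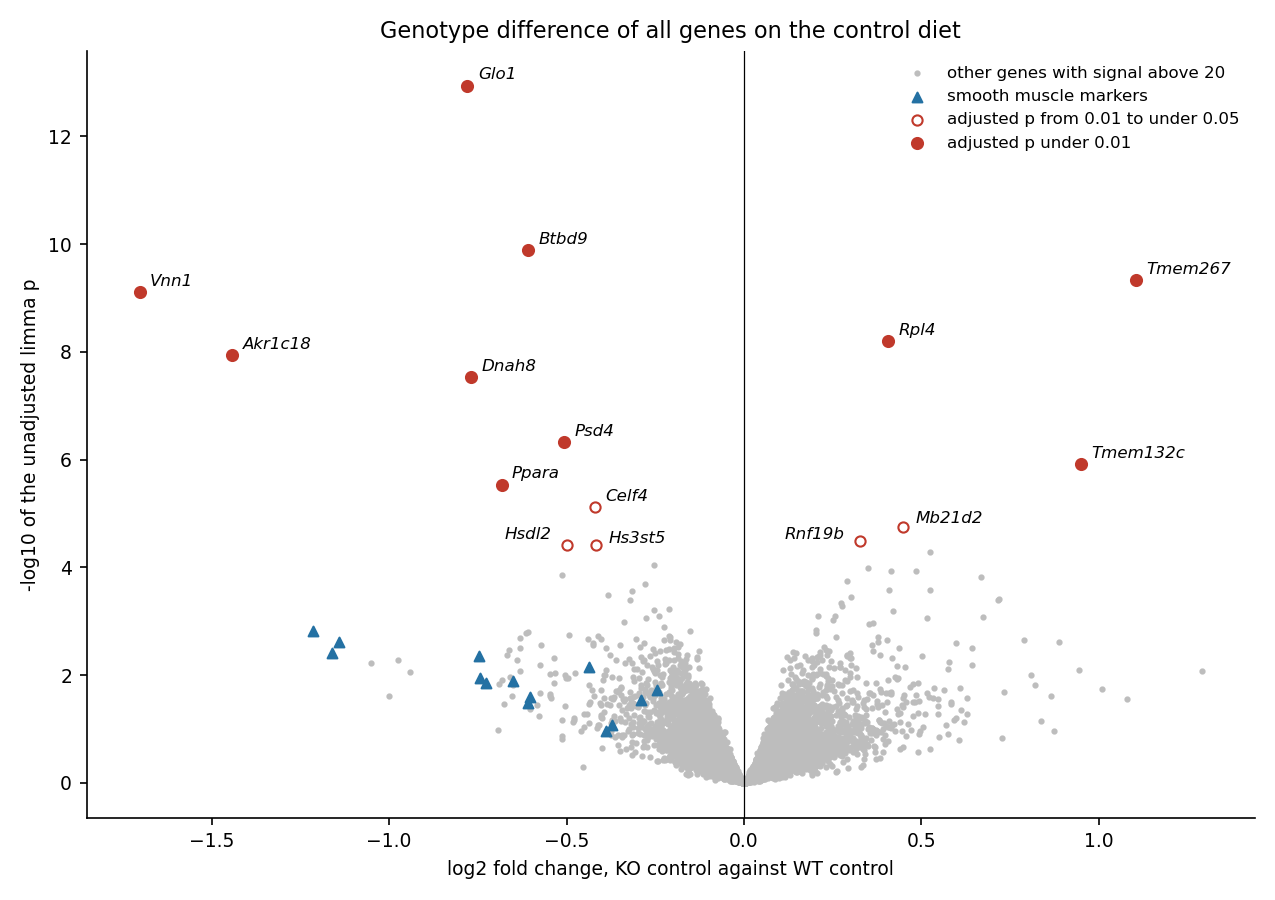
Log2 fold change of KO against WT control mice (x axis) and -log10 of the unadjusted limma p (y axis) for the 14254 genes with a signal above 20. Filled red circles are the 10 called genes, open circles the 5 genes with an adjusted p from 0.01 to under 0.05, and blue triangles the 14 smooth muscle markers, of which 3 lie left of -1 without being called.

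Vnn1, which encodes a pantetheinase that releases cysteamine and pantothenate in the turnover of coenzyme A and is a textbook PPARα target, had the largest difference of the 18820 genes. Its linear signal was 160.2, 159.6, 154, 232 and 150.2 in WT control mice and 40.0 to 68.9 (median 51.3) in KO control mice. The highest KO value was below every WT value. WT control mouse 4 stood above the other WT mice and KO control mouse 1 was the highest of its group. Means were 171 ± 34.1 (SD, n = 5) in WT and 52.8 ± 10.7 (SD, n = 6) in KO mice, giving a log2 fold change of -1.70 (SE 0.169, limma adjusted p = 3.69e-06). The call was kept in all 11 fits that left out 1 array, with log2 fold changes of -1.59 to -1.78. In heme-fed mice the signals of Vnn1 were 364 to 649 in WT and 124 to 236 in KO mice, and the groups again did not overlap, with a log2 fold change of -1.41 (limma adjusted p = 2.4e-05). The difference between diets of this genotype effect was 0.29 (limma adjusted p = 0.86). Vnn1 was thus called in 2 separate sets of mice, and was alone among the PPARα target genes in being called on the control diet.

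Of 40 textbook targets of PPARα, 32 had a probe set of their own and 29 of these had a signal above 20. Vnn1 was called, no target was called higher, and 6 targets, Vnn1 included, had an unadjusted p under 0.05 in the lower direction (3.3% of all genes did), against 0 in the higher direction (2.43% of all genes). The median log2 fold change of the 32 genes was -0.07, with 24 below 0 and 8 above. Over all 18820 genes, 9420 were below 0. Retsat, the retinol saturase, had signals of 838, 769, 862, 970.4 and 701 in WT and 569.7 to 714 (median 645) in KO mice, with a log2 fold change of -0.35 (unadjusted p = 0.0027). The peroxisomal thiolase Acaa1b had 117, 113, 116, 141 and 96.5 in WT and 57.9 to 94.0 (median 87.7) in KO mice, and a log2 fold change of -0.55 (unadjusted p = 0.00944). The groups of Acaa1b were separate, with the lowest WT mouse just above the highest KO mouse, whereas those of Retsat overlapped. Acot2, a mitochondrial acyl-CoA thioesterase, differed by -0.35 (unadjusted p = 0.0166), Angptl4, a secreted inhibitor of lipoprotein lipase, by -0.39 (unadjusted p = 0.0338), and Pdk4, a kinase that inhibits pyruvate dehydrogenase, by -0.68 (unadjusted p = 0.0344). WT control mouse 1 held the highest Pdk4 signal, 486, and the WT mice ranged down to 126, so that the groups overlapped widely. None of these 5 targets passed the adjusted threshold, with adjusted p-values from limma of 0.541 to 0.826. The count of 6 lower targets was 4 to 7 when 1 array was left out, 4 without WT control mice 1 and 2, and 2 without KO control mice 3 and 4.

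**Figure D2:**
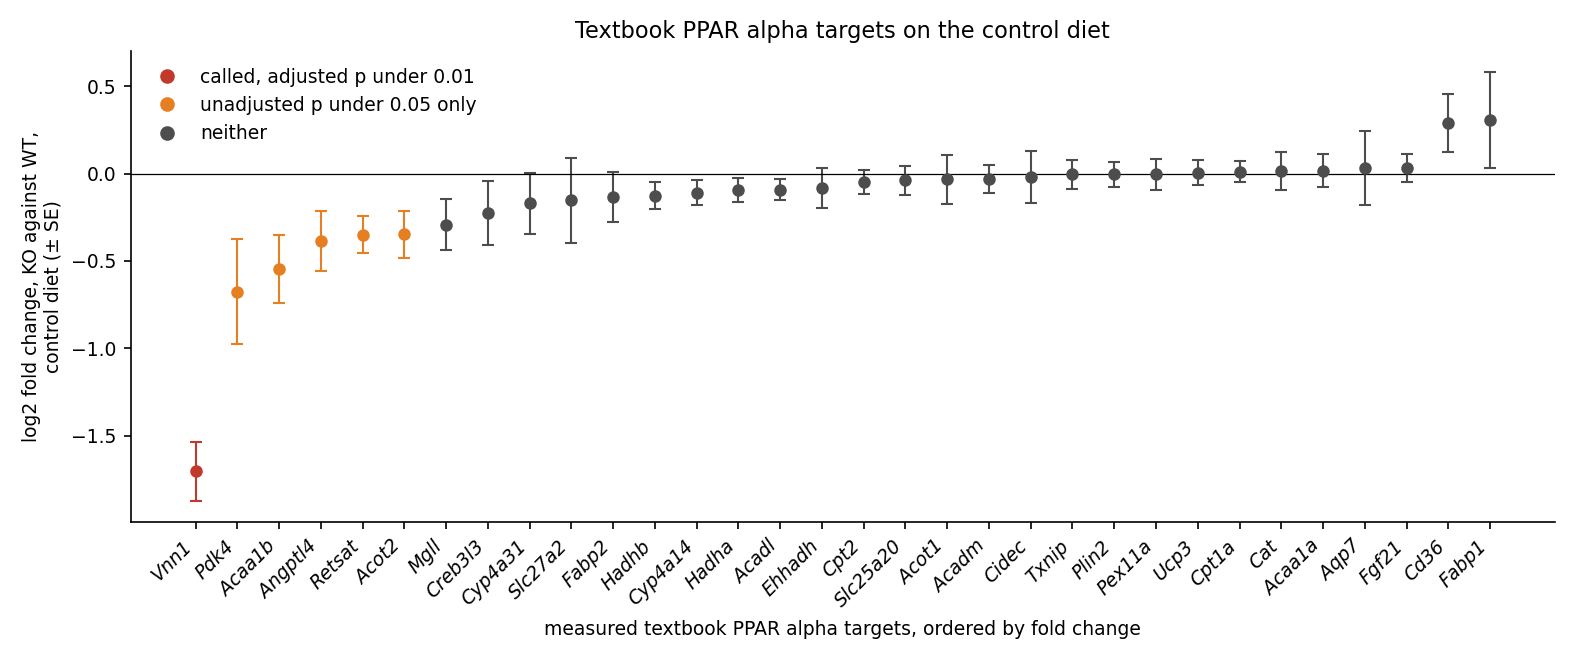
Log2 fold change of KO against WT control mice with its SE (y axis) for the 32 measured textbook PPARα targets, ordered from the lowest to the highest (x axis). Vnn1 (red) stands alone at -1.70, 5 targets in orange have only an unadjusted p under 0.05, and most of the others lie near 0.

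The classical targets Cpt1a and Cat had nearly the same signal in both genotypes on the control diet. Cpt1a, the carnitine palmitoyltransferase that admits long-chain fatty acids to mitochondria, had 2516, 2283, 2665, 2808 and 2590.2 in WT and 2341 to 2773 (median 2628) in KO control mice, and a log2 fold change of 0.01 (SE 0.0603, limma adjusted p = 0.999). For Cat, the peroxisomal catalase, the log2 fold change was 0.01 (SE 0.111, limma adjusted p = 0.999). The groups of both genes overlapped over most of their range. In heme-fed mice the log2 fold change of Cat was -0.45 (limma adjusted p = 0.0452) and that of Cpt1a 0.07 (limma adjusted p = 0.706). Ppard and Pparg, the genes of the related receptors, differed by -0.01 (SE 0.0555, limma adjusted p = 0.999) and 0.03 (SE 0.0945, limma adjusted p = 0.999). Cyp4a10, Acadvl, Ucp2, Acsl1, Cpt1b and Pltp were not analysed here.

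Fabp1 and Cyp4a31 were near background in both genotypes as long as the diet held no heme. Fabp1 encodes the liver-type fatty acid binding protein, a carrier of long-chain fatty acids in the cytosol, and Cyp4a31 a member of the family that ω-hydroxylates fatty acids. Fabp1 signals were 21.7, 25.8, 27.8, 26.3 and 26.7 in WT and 22.9 to 67.8 (median 28.8) in KO control mice. The highest of all was a KO mouse, replicate 3, and the groups overlapped, with a log2 fold change of 0.31 (SE 0.273, limma adjusted p = 0.967). Signals of Cyp4a31 were 14.0, 10.2, 11.8, 10.7 and 9.88 in WT and 8.29 to 11.4 (median 9.91) in KO control mice, below the signal of 20 asked of a called gene. In the heme-fed animals the genotypes were far apart for both genes, Fabp1 with 174 to 827 in WT and 21.0 to 30.0 in KO mice and Cyp4a31 with 80.9 to 214 in WT and 10.1 to 14.5 in KO mice. The genotype difference on heme minus that on the control diet was -4.25, limma adjusted p = 8.34e-07 for Fabp1 and -2.91, limma adjusted p = 5.11e-07 for Cyp4a31. They were the 2 genes (0.0106%) in which this difference between diets passed an adjusted p under 0.05.

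The promoter of Fabp1 is shown because it was alone among the 32 textbook targets found in the promoter table in holding the direct repeat DR1 to which PPARα with its partner binds. Letters are those of RefSeq on GRCm38.p6, the 250 bases before the start of the gene. The first run of capitals is the DR1 match (AGGNCANAGGNCA, found on the other strand, beginning 67 bases before the start), and the second run is a match to the antioxidant response element core (TGACNNNGC, same strand, beginning 9 bases before the start).
Fabp1, chr6:71199629-71199878, plus strand: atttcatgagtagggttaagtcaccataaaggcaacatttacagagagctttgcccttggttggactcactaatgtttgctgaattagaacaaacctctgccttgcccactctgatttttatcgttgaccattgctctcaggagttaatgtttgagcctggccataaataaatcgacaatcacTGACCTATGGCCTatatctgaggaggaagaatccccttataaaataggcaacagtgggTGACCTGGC
Both strands were searched, and neither motif overlapped the other here. Over 27025 genes in the table, 0.4% of such windows held DR1 and 11.5% the antioxidant core, compared with 3.12% (1 of 32) and 9.38% (3 of 32, namely Ehhadh, Fabp1 and Ucp2) of the textbook targets. Of the 10 called genes 8 were in the table, and 0 held either motif within this window.

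Glo1 encodes glyoxalase I, which together with glutathione removes methylglyoxal, a reactive by-product of glycolysis. It had the smallest p of all genes. Linear signals were 1397, 1407, 1511, 1472 and 1563 in WT and 800.0 to 896 (median 860.3) in KO control mice. The gap between the groups was wider than the range of either. Mean signals were 1470.0 ± 70.2 (SD, n = 5) in WT and 856 ± 34.4 (SD, n = 6) in KO mice, with a log2 fold change of -0.78 (SE 0.0497, limma adjusted p = 2.15e-09). A second probe set of the gene gave a log2 fold change of -0.80, beside -0.78 of the brighter one. On heme the log2 fold change was -0.93 (limma adjusted p = 2.03e-11).

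Both genes that flank Glo1 in the order of measured genes were called too. Btbd9, a BTB domain protein gene linked to restless legs syndrome in people, had signals of 591, 579, 606, 618 and 571 in WT and 366 to 410.0 (median 389.7) in KO control mice. Its log2 fold change was -0.61 (SE 0.055, limma adjusted p = 1.2e-06), and -0.44 (limma adjusted p = 3.66e-05) on heme. Dnah8, a heavy chain of axonemal dynein, had 324, 321, 436, 329 and 367 in WT and 193 to 222 (median 206) in KO control mice. WT control mouse 3 was the highest, and all WT mice were above all KO mice. The log2 fold change of Dnah8 was -0.77 (SE 0.0934, limma adjusted p = 7.81e-05), and -0.91 (limma adjusted p = 2.39e-06) on heme. A second and dimmer probe set of Dnah8 differed by -0.18 (unadjusted p = 0.0355). Next to Dnah8 follows Glp1r, the receptor of glucagon-like peptide 1, with signals of 81.1, 86.1, 83.9, 78.9 and 91.7 in WT and 50.1 to 81.6 (median 62.9) in KO control mice. Its groups overlapped, because KO control mouse 1 reached the WT range, and its log2 fold change of -0.42 did not pass the adjusted threshold (limma adjusted p = 0.788). Beyond these, Cmtr1, Ccdc167, Mdga1 and Zfand3 on one side and Umodl1, Abcg1 and Tff3 on the other had log2 fold changes of -0.11 to 0.08, and none was called.

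Since Glo1 and Dnah8 differed in the same direction and by a similar size (log2 fold changes of -0.78 and -0.77), the 250 bases before the start of each are shown, from RefSeq on GRCm38.p6. The genes are transcribed away from each other. No capitals are used, since neither of the motifs spelled out for Fabp1 was found in these windows.
Glo1, chr17:30612660-30612909, minus strand: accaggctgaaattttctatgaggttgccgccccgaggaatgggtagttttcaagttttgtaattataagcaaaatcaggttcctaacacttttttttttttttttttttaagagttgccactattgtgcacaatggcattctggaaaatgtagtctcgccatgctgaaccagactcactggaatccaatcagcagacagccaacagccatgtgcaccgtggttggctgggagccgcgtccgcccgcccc
Dnah8, chr17:30626686-30626935, plus strand: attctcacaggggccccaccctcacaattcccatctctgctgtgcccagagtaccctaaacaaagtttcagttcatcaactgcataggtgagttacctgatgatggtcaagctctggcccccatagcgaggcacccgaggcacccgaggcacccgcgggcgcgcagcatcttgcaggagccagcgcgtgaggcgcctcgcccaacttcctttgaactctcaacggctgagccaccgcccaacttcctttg

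Around Ppara, the locus of the targeted allele, no such run was seen. The 10 nearest measured genes (Fbln1, Atxn10, Wnt7b, Mirlet7c-2, Mirlet7b, Cdpf1, Pkdrej, Ttc38, Gtse1 and Trmu) had log2 fold changes of -0.19 to 0.19 on the control diet. None of them was called on either diet.

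**Figure D3:**
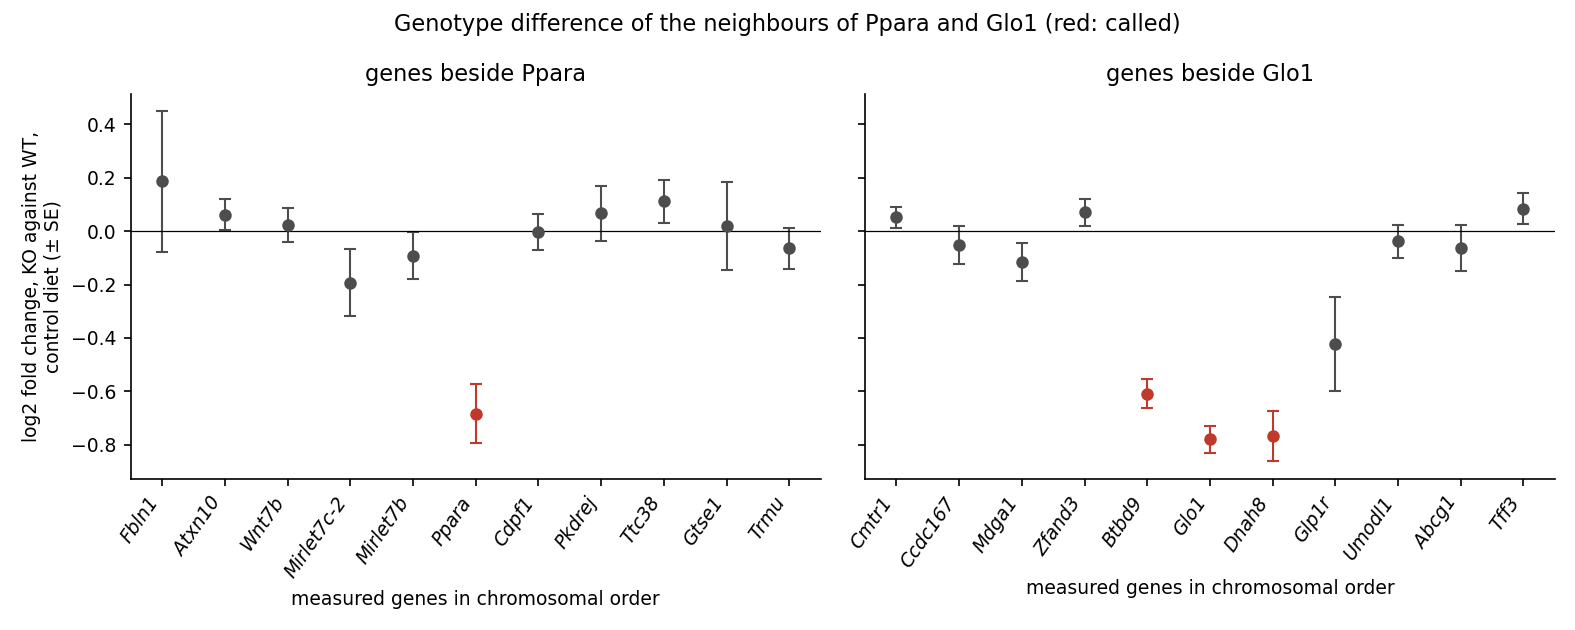
Log2 fold change of KO against WT control mice with its SE (y axis) for the 5 measured genes on each side of Ppara (left) and of Glo1 (right), in chromosomal order (x axis, not to scale). Red marks called genes. Ppara stands alone at -0.68, whereas Btbd9, Glo1 and Dnah8 are adjacent at -0.61 to -0.78.

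Akr1c18 encodes the 20α-hydroxysteroid dehydrogenase that inactivates progesterone. Its signals were 125, 145, 123, 169 and 122 in WT control mice and 40.3 to 58.7 (median 50.2) in KO control mice. The highest KO mouse lay far below the lowest WT mouse. Means were 137 ± 20.2 (SD, n = 5) in WT and 50.3 ± 6.53 (SD, n = 6) in KO mice, with a log2 fold change of -1.44 (SE 0.166, limma adjusted p = 3.57e-05). With heme the signals were 431 to 789 in WT and 253 to 513 in KO mice, so that the groups overlapped there, with a log2 fold change of -0.58 (limma adjusted p = 0.0944). The difference between the diets was 0.87 (limma adjusted p = 0.418), which did not pass. Among 19 measured steroid and prostaglandin aldo-keto reductases and dehydrogenases it was called alone, and 2 of the list (Akr1c18 and Hsd17b4) had groups that did not overlap, both lower in KO mice (0.414% of all genes were separate in this direction, and 0.478% in the other). The list's median was -0.06.

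Psd4, an exchange factor for the small GTPase ARF6, had signals of 434, 454, 534, 491 and 489 in WT and 299 to 366 (median 344) in KO control mice. Its groups were separate on this diet. The log2 fold change was -0.51 (SE 0.073, limma adjusted p = 0.0011), and -0.58 (limma adjusted p = 3.66e-05) in heme-fed mice.

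Of the 3 genes that were higher in KO mice, Tmem267 differed most. It encodes a transmembrane protein. Signals of Tmem267 were 69.4, 75.7, 94.1, 73.7 and 63.1 in WT and 150.3 to 185 (median 156) in KO control mice. The lowest KO mouse lay well above the highest WT mouse, and the heme-fed mice had signals of 60.1 to 89.4 in WT and 151 to 206 in KO mice. The log2 fold change of Tmem267 was 1.10 (SE 0.107, limma adjusted p = 2.95e-06), and 1.20 (limma adjusted p = 1.85e-07) on heme.

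Rpl4, a protein of the large ribosomal subunit, had signals of 1093, 1044, 1051, 1083 and 1091 in WT and 1325 to 1479.9 (median 1423) in KO control mice. The mice of each group lay close together, and the lowest KO mouse was above the highest WT mouse. The log2 fold change was 0.41 (SE 0.0452, limma adjusted p = 2.38e-05), and 0.36 (limma adjusted p = 3.66e-05) on heme. The 33 measured ribosomal protein genes had a median of 0.01 and a range of -0.15 to 0.41, with Rpl4 at the upper end and Rpl7 as the other member with an unadjusted p under 0.05 (-0.15). Ribosomal protein genes have near-identical copies elsewhere in the genome, and which of them the probes read was not examined.

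Tmem132c, another transmembrane protein gene, had 46.3, 58.1, 62.3, 68.8 and 58.1 in WT and 74.0 to 178 (median 112) in KO control mice. KO control mouse 3 lay just above the highest WT mouse and KO control mouse 4 far above the other mice. Its log2 fold change was 0.95 (SE 0.145, limma adjusted p = 0.0025). The call was lost without WT control mouse 1 or 5, at an adjusted p of up to 0.016, in the fit of the 11 control-diet arrays alone (0.14), in the ordinary linear model (0.0149) and without WT control mice 1 and 2 (0.0859). On heme the signals were 39.7 to 59.7 in WT and 49.7 to 60.0 in KO mice, with a log2 fold change of 0.31 (limma adjusted p = 0.368).

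**Figure D4:**
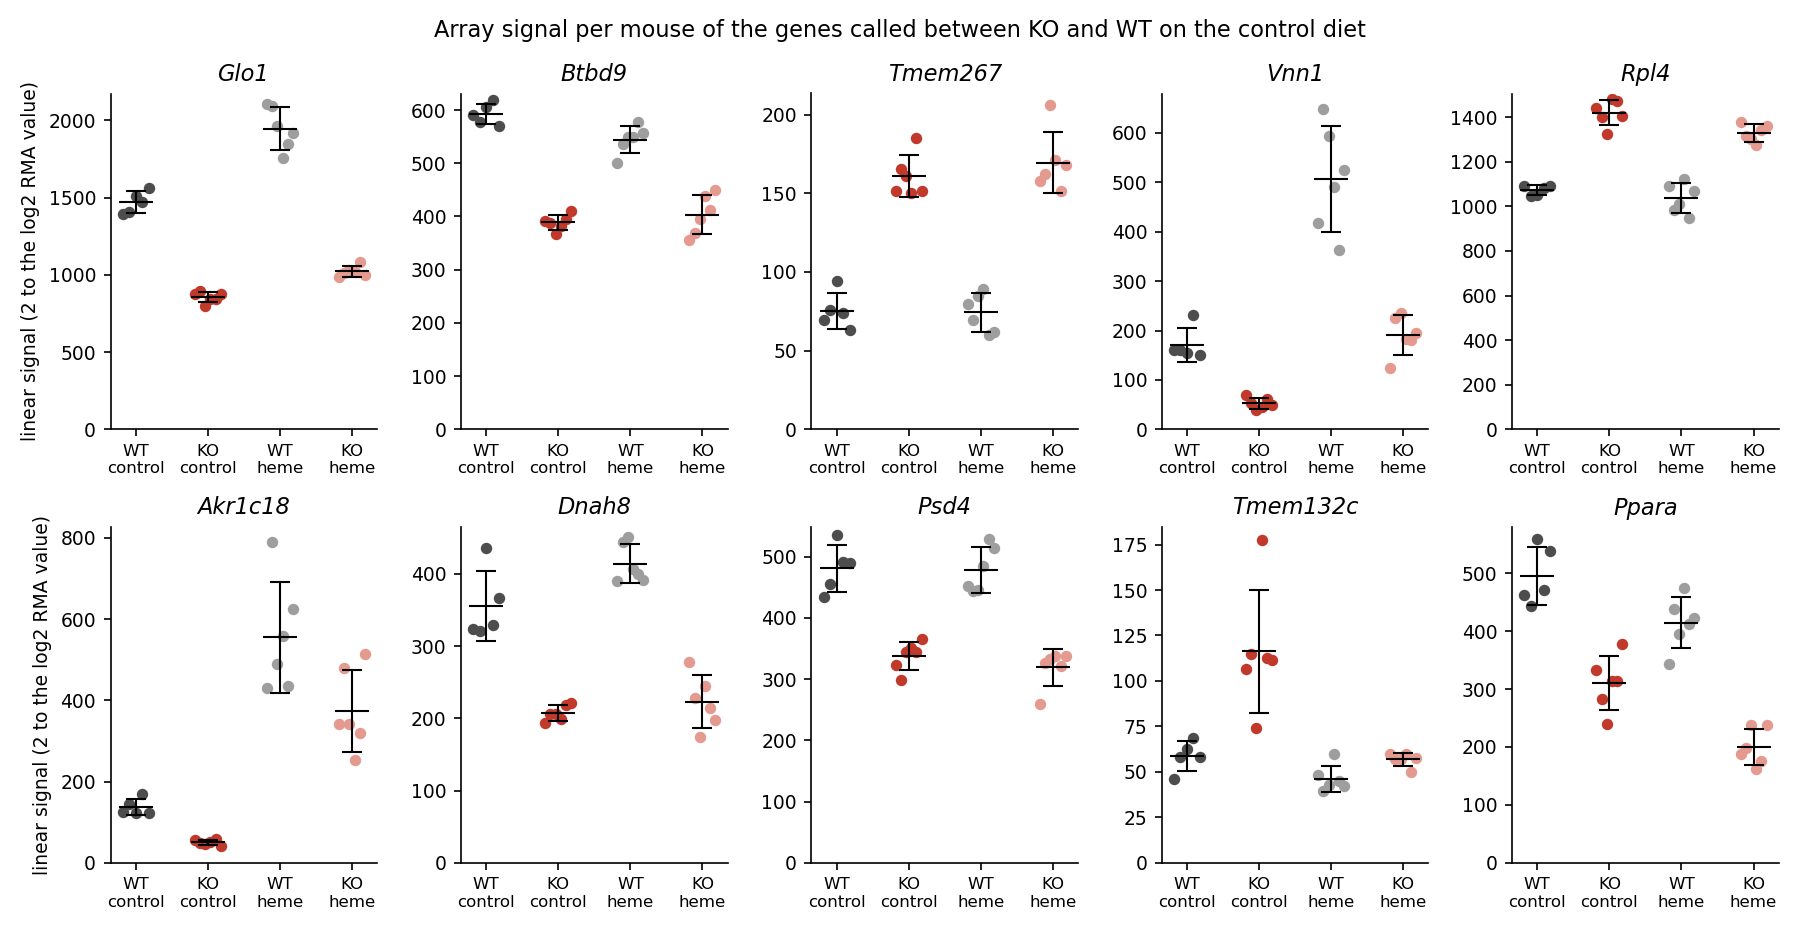
Linear signal per mouse (y axis from 0) of the 10 genes called on the control diet, in WT control (n = 5), KO control (n = 6), WT heme (n = 6) and KO heme mice (n = 6); points are mice, bars the mean ± SD. Control groups are separate for all 10 genes, and on heme the groups overlap for Akr1c18 and Tmem132c.

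In the heme-fed mice, which are other animals of the same substrains, all 10 called genes had a log2 fold change of the same sign, and 8 of them were called there (0.234% of all genes were). Akr1c18 and Tmem132c were the exceptions, and none of the 10 passed the test of the difference between diets. Of the 5 genes on the wider list, 3 had the same sign on heme. Mb21d2 was higher in KO mice on both diets, with 0.45 (SE 0.083, limma adjusted p = 0.0283) on control and 0.50 (limma adjusted p = 0.00144) on heme. Rnf19b, a ubiquitin ligase gene, had 0.33 (SE 0.0632, limma adjusted p = 0.0466) and 0.16 (limma adjusted p = 0.248). Hsdl2, a dehydrogenase-like protein of peroxisomes, had -0.50 (SE 0.098, limma adjusted p = 0.0488) and -0.21 (limma adjusted p = 0.37). Celf4, an RNA-binding protein of neurons, and Hs3st5, a heparan sulfate sulfotransferase, lay at signals of 19.6 to 35.2 and 15.6 to 26.3, close to the minimum. On the control diet they differed by -0.42 (SE 0.073, limma adjusted p = 0.0131) and -0.42 (SE 0.0822, limma adjusted p = 0.0488), and on heme by 0.05 and 0.01.

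The wider pathway of fatty acid handling was followed through 11 lists of PPARα-related genes. Apart from Ppara, 139 genes were measured, 128 of them with a signal above 20. Vnn1 was called, 20 genes were lower at an unadjusted p under 0.05 (3.3% of all genes were) and 1 (Fabp6) was higher (2.43% of all genes), and the median of the 139 was -0.01. Among the 20, 19 also had a negative log2 fold change in the heme-fed mice, 8 of them at an unadjusted p under 0.05. The shares of all genes with such values on the heme diet were not counted. Without them, the 19 and 8 are no measure of agreement between the diets. The 20 became 13 without WT control mice 1 and 2, 9 without KO control mice 3 and 4, 15 with the smooth muscle signal as a covariate, and 13 to 20 with single arrays left out, the lowest without KO control mouse 3.

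Apart from the textbook targets, the peroxisomal list was the longest and had the most members in that direction by count, though not by share. Acyl-CoA thioesterases had 3 of 11, vanins and coenzyme A turnover 3 of 11, and pyruvate dehydrogenase kinases and phosphatases 2 of 7. Of 25 measured genes of peroxisomal β-oxidation and biogenesis, 5 were lower at an unadjusted p under 0.05 (3.3% of all genes), and for 4 (Hsd17b4, Acaa1b, Abcd3 and Ech1) the groups did not overlap (0.414% of all genes in this direction). Hsd17b4, the bifunctional enzyme of the peroxisomal pathway, had 309, 300.3, 306, 326 and 301 in WT and 252 to 280.4 (median 277) in KO control mice, a log2 fold change of -0.18 (unadjusted p = 0.00657). Abcd3, a transporter of the peroxisomal membrane, had -0.20, Ech1 -0.17 and Crot, which forms carnitine esters of shortened fatty acids, -0.20 on this scale. The median of the 25 genes was 0.01, so that most of the list lay around 0.

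Mitochondrial β-oxidation had 2 of 20 genes lower at an unadjusted p under 0.05. Over all genes 3.3% were lower and 2.43% higher at this level, which applies to each list in this paragraph. Eci2, an enoyl-CoA isomerase, differed by -0.20 (unadjusted p = 0.00827) with separate groups, and Etfdh, which passes electrons to ubiquinone, by -0.15 (unadjusted p = 0.0174). In fatty acid uptake, binding and activation (13 genes) the transporter Slc27a4 was lower (-0.20 (unadjusted p = 0.00869)) without overlap of the groups, and Fabp6, the ileal bile acid binding protein, higher (0.26 (unadjusted p = 0.0254)). Fabp6 lay close to the minimum signal of 20, with mean log2 values of 4.18 in WT and 4.44 in KO control mice. Its groups overlapped. Among 11 acyl-CoA thioesterases, Acot2, Acot5 and Acot6 were lower at unadjusted p-values of 0.0166, 0.00331 and 0.00825, Acot5 at signals below 20. In coenzyme A turnover (11 genes), Pank3, a pantothenate kinase, had -0.14 (unadjusted p = 0.0333) beside Vnn1. Of 7 pyruvate dehydrogenase kinases and phosphatases, Pdk3 had -0.23 (unadjusted p = 0.00224) beside Pdk4. Of 10 genes of ω-hydroxylation, Cyp4b1 had -0.55 (unadjusted p = 0.0227) and Aldh3a2, a fatty aldehyde dehydrogenase, -0.13 (unadjusted p = 0.0253). Ketone body and butyrate handling (6 genes) had 0 at this level, and their log2 fold changes ran from -0.08 to 0.11. Of the genes in this paragraph other than Vnn1, none passed an adjusted p under 0.05.

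Of 14 genes of glyoxalase and aldehyde detoxification, 4 were lower at an unadjusted p under 0.05 (3.3% of all genes), among them Glo1 and the aldo-keto reductase Akr1b8 (-0.51), which was not called. In fatty acid and glycerolipid synthesis (25 genes), Acly, Scd1, Scd2 and Gpam were lower at that level, at -0.15, -0.58, -0.20 and -0.15, and Apob was higher at 0.41. Cholesterol synthesis and uptake (20 genes) had 0 in either direction, and NRF2 targets and glutathione (25 genes) 1, Gsta3 (-0.24). All 24 measured genes of G2 and M phase had negative log2 fold changes, of -0.30 to -0.07, with 0 at an unadjusted p under 0.05 (4 without KO control mouse 3, with a median of -0.22 beside -0.17 over all mice), and the list's mean log2 value was 7.45 to 7.98 in WT and 7.14 to 7.84 in KO mice. In the heme-fed mice the median of the G2 and M phase list was -0.31. Its mean log2 value there was 8.10 to 8.78 in WT and 7.97 to 8.58 in KO mice. These genes share dividing cells as their source and are not independent of each other.

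Larger shifts were seen in markers of cells beneath and between the epithelium and in interferon-stimulated genes, none of which was called. Smooth muscle markers (14 of 14 measured) all had negative log2 fold changes with a median of -0.63, and 12 had an unadjusted p under 0.05 (3.3% of all genes in this direction). Actg2, the enteric smooth muscle actin, had signals of 1671, 1939, 858, 499 and 605 in WT and 177 to 658 (median 451) in KO control mice. Cnn1, Des and Actg2 had the largest log2 fold changes, -1.14, -1.16 and -1.21, and the groups overlapped in every one of the 14 genes. The mean of the list was 8.36 to 9.86 in WT and 7.59 to 8.81 in KO mice. Without WT control mice 1 and 2 the median was -0.15 and 0 of the 14 had an unadjusted p under 0.05 (7 without mouse 1 alone and 5 without mouse 2 alone). In bulk mucosa, fewer cells of a type and less RNA per cell cannot be told apart. When the mean of this list was added to the model, 10 genes were called, 9 of them the same as without it, with Tmem132c lost and Rusc2 gained. In the heme-fed mice the median log2 fold change of the 14 smooth muscle genes was -0.08.

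Interferon-stimulated genes (22 of 26 measured) all had positive log2 fold changes with a median of 0.41, and 6 had an unadjusted p under 0.05 (2.43% of all genes in this direction, as for the lists that follow). These were Psmb8, Psmb9 and Tap1 of antigen processing, the guanylate binding proteins Gbp3 and Gbp4, and Irgm1. Psmb8 signals were 105, 120.4, 89.3, 127 and 127 in WT and 118 to 318 (median 158) in KO control mice. KO control mouse 3 was the highest and KO control mouse 5 lay within the WT range. Without KO control mice 3 and 4 the median of the list was 0.09, with 2 genes at that level, and with single arrays left out 5 to 10 genes reached it, the most without KO control mouse 5 or 6. Macrophage, dendritic cell and MHC class II genes (17 of 18) had a median of 0.31 with 4 higher at an unadjusted p under 0.05 (Itgam, Cd74, H2-Ab1 and H2-DMa). The count was 1 without WT control mouse 3 and 1 without KO control mouse 3, and 9 without KO control mouse 4, with medians of 0.22 to 0.39 over all 11 fits that left out 1 array. With the smooth muscle mean in the model 15 of the 17 were higher at that level, and the median was 0.59. Fibroblast and matrix genes had a median of 0.10 and 0 members at that level, and the median was -0.20 without WT control mouse 3. Without WT control mice 1 and 2 the median was 0.45 with 4 of 14 higher at that level, and with the smooth muscle mean in the model 0.50 with 9 higher. Enteric neurons and glia (11 genes) had a median of -0.20, and -0.04 without WT control mice 1 and 2. In the heme-fed mice the medians were 0.10 for interferon-stimulated genes and 0.27 for macrophage, dendritic cell and MHC class II genes. They were -0.000108 there for fibroblast and matrix genes and 0.05 for enteric neurons and glia.

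**Figure D5:**
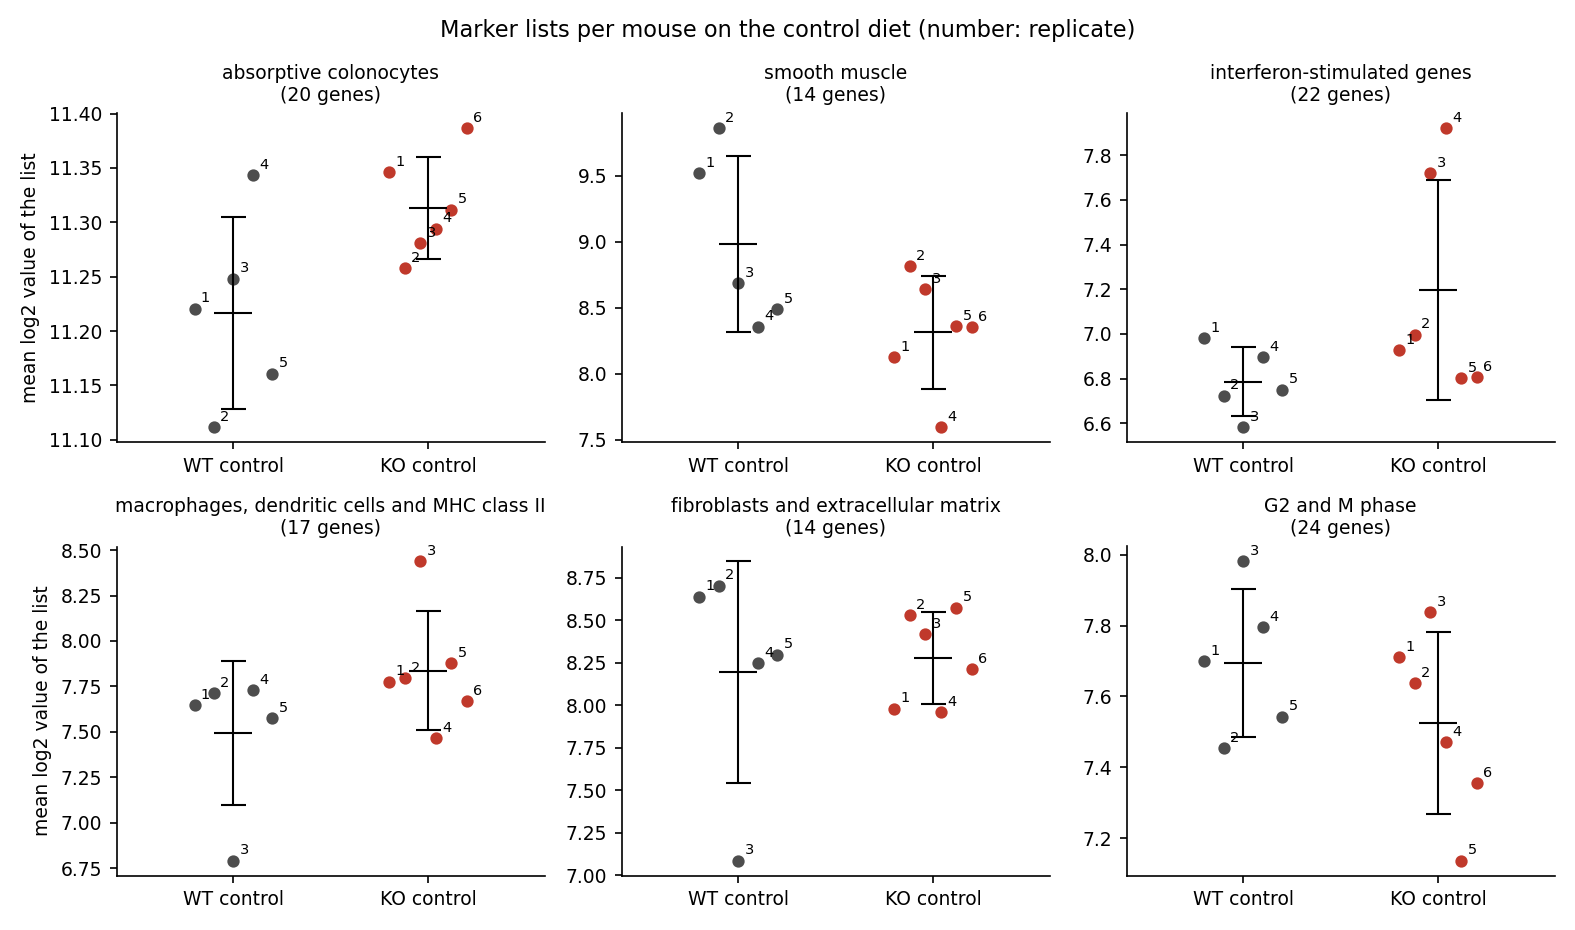
Mean log2 value of 6 gene lists (y axes, each with its own range) per mouse in WT control (n = 5) and KO control mice (n = 6); numbers are replicates, bars the mean ± SD. Smooth muscle is high in WT mice 1 and 2, interferon-stimulated genes are high in KO mice 3 and 4, and WT mouse 3 is low in fibroblast and MHC class II lists.

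Epithelial lists differed in single genes. Alpi, the intestinal alkaline phosphatase, had signals of 435, 515, 639.7, 620.2 and 470.1 in WT and 694 to 1143 (median 844) in KO control mice, without overlap of the groups. Its log2 fold change was 0.72 (SE 0.173, limma adjusted p = 0.231), and 0.21 (limma adjusted p = 0.668) on heme. The 20 absorptive colonocyte markers had a median of 0.05. Gcg, the precursor of glucagon-like peptides in enteroendocrine cells, differed by 0.40 (unadjusted p = 0.00218) and Ccl9, a chemokine, by 0.29 (unadjusted p = 0.00431), with a median of 0.08 in enteroendocrine and 0.05 in goblet cell markers. Antimicrobial genes (15 measured) had 4 higher at an unadjusted p under 0.05 (2.43% of all genes), among them Nos2, the inducible nitric oxide synthase (0.82 (unadjusted p = 0.0154)), and the oxidase genes Duox2 (0.39) and Duoxa2 (0.61), and 0 without KO control mouse 3. Tuft cell markers (11 genes) had 3, Trpm5, Alox5ap and Il17rb, at 0.31, 0.25 and 0.24, and 0 without WT control mice 1 and 2. On the control diet the medians were 0.21 for antimicrobial genes and 0.13 for tuft cell markers. In the heme-fed mice these medians were 0.51 and -0.003.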

How the data were processed

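For 23 arrays the authors deposited normalised log2 values of probe sets, made from Affymetrix whole-transcript arrays by Robust Multi-array Average (RMA) over all arrays together. RMA corrects background, equalises the distribution of the arrays and summarises probes. Small differences of a whole sample are thereby removed, and the version of the software was not stated. Arrays have no read depth, and precision depends on how many there are and on the spread of each gene between mice.

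Of 35556 probe sets, 21218 carried 1 symbol in the platform annotation, 1881 several and 12457 none. Symbols were updated through Entrez numbers in RefSeq (GRCm38.p6, 21185 matched), and the brightest probe set stood for each of 1386 genes with several. Probe sets without a symbol of their own stayed out of the fit over genes.

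A single model of the 4 groups was fitted with limma 3.58.1 in R 4.3.3, with contrasts of KO against WT on each diet and of their difference, and Benjamini-Hochberg adjustment over 18820 genes. A gene was called at an adjusted p under 0.01 with a mean log2 value above log2(20) in either group, after the thresholds of the study. Samples are separate mice. The replicate numbers were checked as pairs and not used as a block. Ppara was also compared by an exact permutation test in Python 3.11.15 (numpy 2.4.6, pandas 2.3.3). Figures were drawn with matplotlib 3.10.9.

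Genes named are Ppara, all called genes, up to 12 genes in each direction with an adjusted p from 0.01 to under 0.05 and separate groups, the 6 textbook targets with the smallest p and 11 fixed ones, the leading members of each of 45 gene lists, and the 5 measured genes on each side of Ppara and Glo1. Members and lists were chosen with earlier results of these data known. Other genes, such as further list members with an unadjusted p under 0.05 and Rusc2, were named after their values were seen. Lists are described by counts and medians, without a test. The fit was tested on simulated data with 200 changed genes. Alternatives were other filters, probe set rules, variance models, centring, weights, linear signal, the control-diet arrays alone, the replicate number as a block and each array left out. A smooth muscle covariate, all probe sets, an arithmetic mean filter and pairs of arrays left out were added after seeing the data.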

Additional observations from a re-analysis of the deposited data

Results flagged for a closer look

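Among 146 sets of values of 1 group, each a named gene or a marker list in WT or KO control mice, 11 held a mouse far from the rest of its group by Dixon's criterion, which chance meets in about 1 of 20 sets. Vnn1 in WT control mouse 4 had a signal of 231.8, with 150.2 to 160.2 in the other WT mice, and Vnn1 stayed called without that array. Fabp1 in KO control mouse 3 had a signal of 67.8, with 22.9 to 31.8 in the other KO mice. WT control mouse 3 was the lowest of its group in 5 lists, with mean log2 values of 7.09 for fibroblasts and matrix, 6.79 for macrophages and MHC class II, 6.05 for endothelium and blood, 7.17 for Wnt, hedgehog and BMP signals and 8.78 for superoxide and peroxide enzymes. WT control mouse 5 was the highest in immediate-early genes (8.13) and in circadian clock genes (8.19). WT control mouse 1 was the lowest in cholesterol synthesis and uptake (8.47), and KO control mouse 3 the highest in fatty acid and glycerolipid synthesis (8.53).

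Fabp1 and Cyp4a31 differed between the diets in their genotype effect, by -4.25 and -2.91 on the log2 scale (limma adjusted p = 8.34e-07 and 5.11e-07).

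Probe sets without a gene symbol of their own were not part of the comparison over genes, and 7 of them differed between KO and WT control mice when all 35556 probe sets were tested. These were 2 of the 12457 without a symbol and 5 of the 1881 with several symbols, beside 11 of the 21218 with 1 symbol. All 7 were higher in KO mice. The 5 with several symbols overlap in their symbols and are not independent of each other. A probe set without a symbol had the largest difference, with a signal of 62.4 ± 10.1 (SD, n = 5) in WT and 163 ± 21.0 (SD, n = 6) in KO control mice (log2 fold change 1.39), and a second without a symbol differed by 0.60. Of the other 5, which carry several symbols, 2 with identical values (Fam177a2, Srp54c, Fam177a and Ppp2r3c) differed by 0.65, another for Fam177a2 and Fam177a by 0.65, and 2 for the Srp54 copies Srp54a, Srp54b and Srp54c by 0.41 and 0.37. In all 7, the lowest KO mouse was above the highest WT mouse on both diets. Which of the named genes the probes read cannot be told apart.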

How the results depend on the processing

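The count of 10 called genes was 7 to 11 under the other filters, probe set rules, variance models, scalings and the fit of the control-diet arrays alone, and 8 to 12 with single arrays left out. With all probe sets of the array 18 were called, which is a count of probe sets and not of genes. Of these, 11 had 1 symbol, 2 of them for Glo1. At an adjusted p under 0.05 the count of genes was 10 to 22. Whether replicate numbers pair the samples was not settled. Correlations of same-numbered mice ran from -0.21 to 0.29, and 3 of 5 WT mice were closest to their own number. With the replicate block on the control-diet arrays the counts were 0 at 0.01 and 7 at 0.05 (limma, with 1265 genes at an unadjusted p under 0.05), and 11 at 0.01 with the replicate block in all 4 groups. Ppara kept its direction throughout, but its adjusted p was above 0.01 on the control-diet arrays alone and in the ordinary linear model (-0.68 in both), with arrays centred on their median (-0.69), with the replicate block on control-diet arrays (-0.74), without WT control arrays 1 and 2 (-0.76) and without KO control arrays 3 and 4 (-0.60). With single arrays left out it was -0.74 to -0.61, with an adjusted p above 0.01 in 8 of 11 fits. The cause was not tested. On linear signal Vnn1 (adjusted p = 0.649), Akr1c18 (0.999) and Tmem132c (0.0603) were not called. Centring moved Psd4 to an adjusted p of 0.0129. Glo1, Btbd9, Dnah8, Tmem267 and Rpl4 stayed called in every fit other than the replicate block on the control-diet arrays. None of the 10 genes changed direction in any fit. Signals near 20, as for Celf4, Hs3st5, Fabp6 and Fabp1, lie close to background and limit what can be seen of low genes.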

Other observations

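Several further gene groups were nearly level between KO and WT control mice, and none of their members other than Ppara was called. Oxidative phosphorylation (34 genes) had a median log2 fold change of 0.02 with 2 genes higher at an unadjusted p under 0.05, Ndufa4 and Ndufb3, and glycolysis and gluconeogenesis (18 genes) a median of 0.02 with 2 higher, Pfkp and Fbp1. Superoxide and peroxide enzymes (11 genes) had a median of 0.01 and 0 such genes, xenobiotic metabolism (27 genes) -0.03 with Cyp2c65 lower, and chaperones and the unfolded protein response (17 genes) 0.01 with Herpud1 higher and Hspb1 lower. The PPAR partners and coregulators were level, with a median of 0.01 over 16 genes that include Ppara, and no member besides Ppara reached that level. Lipid droplet and lipolysis genes (16) had Angptl4 alone.

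Among signalling and proliferation genes, S phase (23 genes) had a median of -0.10 and circadian clock genes (15) 0.09, each with 0 genes at an unadjusted p under 0.05. Immediate-early genes (19) had a median of 0.08 with Klf4 higher, Wnt, hedgehog and BMP signals (27) 0.10 with the Wnt inhibitor Wif1 higher, and crypt base genes (17) 0.03 with Tert higher and Smoc2 lower. Lymphocyte markers (19) had a median of 0.23, mast cell markers (11) 0.08, endothelium and blood (8) 0.07, adipocytes (8) -0.01, squamous epithelium (12) -0.06, pancreas and liver (8) -0.03 and markers of position along the colon (15) -0.01, all with 0 genes at that level.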
